A study of Homo sapiens with 8 samples.

Results

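FBL encodes fibrillarin, and the genes described here are FBL and 9 genes whose proteins form or build the box C/D small nucleolar ribonucleoprotein (snoRNP) with it. They were chosen by name, without use of their measured values, and each was found as 1 row of the gene count tables, 10 of the 58395 genes listed. The 4 core proteins are FBL, NOP56, NOP58 and SNU13. The 6 assembly factors are ZNHIT6, ZNHIT3, NUFIP1, RUVBL1, RUVBL2 and PIH1D1. All 10 passed the filter on low counts that left 16503 genes for testing.

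Box C/D snoRNPs methylate ribosomal RNA on the ribose 2'-O position. Each particle is built on a small nucleolar RNA (snoRNA) that base-pairs with its target, and fibrillarin is the methyltransferase of the particle. SNU13 binds the kink-turn formed by the C and D boxes of the snoRNA, and NOP56 and NOP58 form the scaffold that seats fibrillarin on the RNA. The proteins do not assemble unaided: NUFIP1, held by ZNHIT3, bridges the core proteins, ZNHIT6 takes part in early particles, and the R2TP complex, in which PIH1D1 works with the ATPases RUVBL1 and RUVBL2 beside the chaperone HSP90, drives the assembly. In leukaemia cells, as in other fast-growing cells, this machinery serves the heavy demand for new ribosomes.

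RNA was sequenced from the established cell line OCI-AML3, which grew out of a human acute myeloid leukaemia, after polysome profiling, in which a sucrose gradient separates RNAs by the number of ribosomes they carry. There are 4 groups of 2 libraries each, 8 libraries in all: polysome RNA with titles U, polysome RNA with titles CT, input RNA with titles U and input RNA with titles CT. The genotype label of U is FBL knockdown and that of CT is WT. The protocol names the hairpins shFBL and shCT, so every group, CT included, was infected, and all cells received cycloheximide, which holds ribosomes on mRNA, before lysis. Each lysate gave both an input sample and a gradient sample, and the title numbers 1 and 2 tell the 4 lysates apart. Neither the hairpin sequence nor the gradient fractions taken as polysome RNA could be read from the labels, which also do not say that libraries 1 and 2 stem from separate infections. The spread behind each p-value may therefore be technical. Libraries 1 and 2 of each group also differ in FBL, as given below, and that difference can add to the spread. The FBL counts given below go against the labels, and the groups are called by their labels throughout.

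Gene counts per library lay between 22.2 M in polysome U library 2 and 43.1 M in input U library 2 (M, mega-counts). Polysome libraries detected 14344 to 15910 genes, the most in polysome CT library 2, and input libraries 18323 to 18440. Of 12 genes taken as markers of a myeloid leukaemia line, 11 were at 1 CPM (counts per M gene counts, after scaling) or more in every library. The summed level of the 12 was 2674 to 2941 CPM over the 8 libraries. It includes NPM1 and PTPRC, which are not limited to myeloid cells. Defining T cell, erythroid, B cell, epithelial and fibroblast markers were at or near 0, with summed levels of 0 to 3.18 CPM.

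Most of the snoRNAs that these proteins bind are made from introns, and the introns of NOP56 and NOP58 themselves hold several. Their sequences show the motifs that SNU13 and the rest of the core recognise. Below, the core of the C box (TGATG) and the D box (CTGA) are in capitals in the DNA letters of the GENCODE v29 transcripts, GRCh38, plus strand, 5′ to 3′. The first pair lies within NOP56 (chr20:2656939-2657010 and chr20:2656097-2656182) and the second within NOP58 (chr2:202276431-202276518 and chr2:202293051-202293134).
SNORD57: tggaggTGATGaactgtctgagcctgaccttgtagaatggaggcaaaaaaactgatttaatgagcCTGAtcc
SNORD86: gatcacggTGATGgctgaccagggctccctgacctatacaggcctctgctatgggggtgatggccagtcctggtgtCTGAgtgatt
SNORD70: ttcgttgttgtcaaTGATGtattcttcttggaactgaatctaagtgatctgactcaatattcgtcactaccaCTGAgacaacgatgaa
SNORD11: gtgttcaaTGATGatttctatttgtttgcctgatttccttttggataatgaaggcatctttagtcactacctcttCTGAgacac
Searched on the transcript strand, TGATG followed downstream by CTGA stood in 260 of 288 annotated SNORD transcripts (90.3%) and in 8 of 149 transcripts of the other large class, the H/ACA snoRNAs named SNORA (5.37%). None of these 4 snoRNAs, nor SNORD56, SNORD110 or SNORD11B in the same hosts, had a read in any library. SNORD57, SNORD86, SNORD56 and SNORD110 lie wholly inside annotated NOP56 exons. Reads from them may have been left out as ambiguous, so their zeros do not show absence. Over all 314 SNORD rows of the tables, 7 had a read, and a library held 0 to 62 SNORD reads.

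**Figure D1:**
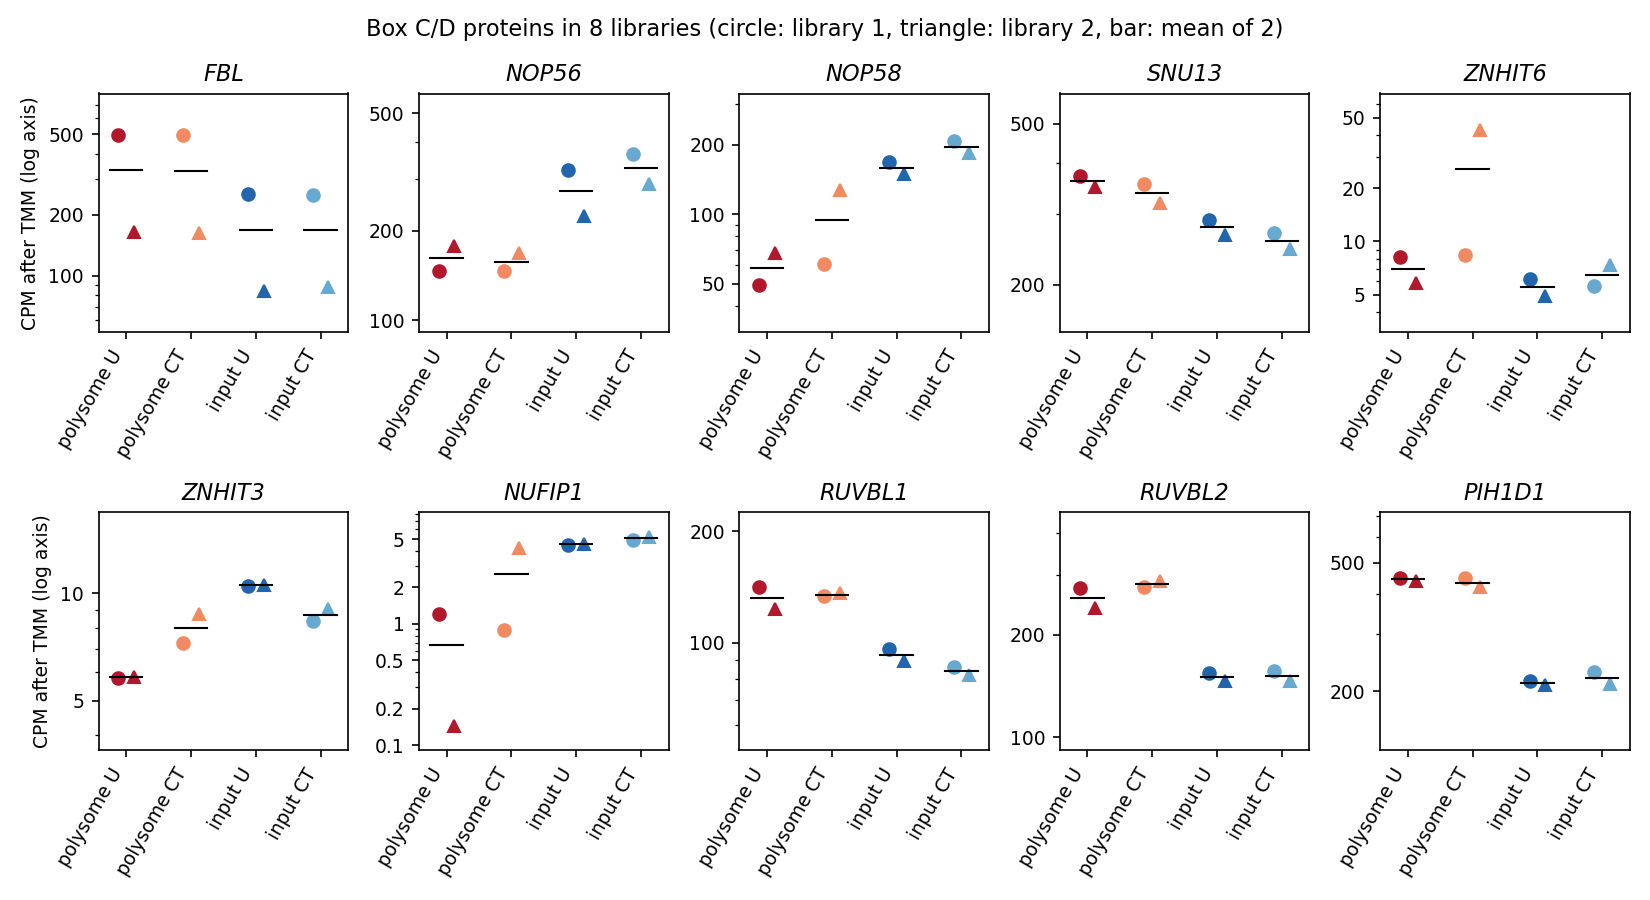
Level of each gene in every library, in CPM after TMM scaling on a log axis, by group (circle, library 1; triangle, library 2; bar, mean of the 2). FBL parts by library number in each group, at 499 and 165 CPM in polysome U and at 498 and 163 CPM in polysome CT, while PIH1D1 parts only by fraction.

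FBL (ENSG00000105202, chromosome 19, 39834458 to 39846414, minus strand) is the gene that the labels say was knocked down. Its levels in libraries 1 and 2 were 499 and 165 CPM in polysome U, against 498 and 163 CPM in polysome CT. In input RNA they were 253 and 84.2 CPM in input U, against 250 and 88.1 CPM in input CT. The U and CT groups overlapped almost entirely, and in each of the 4 groups the library numbered 2 was the low one. The log2 fold change of U over CT was 0.01 in polysome RNA (SE 0.69, adjusted p = 1, edgeR quasi-likelihood test with Benjamini-Hochberg adjustment over all genes) and -0.01 in input RNA (SE 0.69, adjusted p = 1, edgeR). Library by library the match was close: the ratio of U to CT was 1.00 between the libraries numbered 1 and 1.01 between those numbered 2 in polysome RNA, and 1.01 and 0.956 in input RNA. These are bulk libraries, so fewer cells with the transcript and less transcript per cell cannot be told apart.

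The difference within groups was larger for FBL than for any partner in input RNA. Library 2 held 0.332 of the FBL level of library 1 in polysome U, 0.328 in polysome CT, 0.333 in input U and 0.352 in input CT. The number is a replicate number and no treatment in the labels, so this is given as a description with no test. Among the 8159 genes that averaged 10 CPM or more, FBL ranked second by the smallest of its 4 decreases on the log2 scale (-1.499), behind ZBTB32, a zinc-finger transcription factor (-1.64). The others below -1 in all 4 groups were SOCS3, a feedback inhibitor of cytokine signalling, FZD4, a Wnt receptor, and KCNN1, a calcium-activated potassium channel, which makes 5 genes, while 3 genes were higher by more than 1 in all 4.

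The core partners and assembly factors did not share that pattern. Library 2 was lower than library 1 in all 4 groups for 3 of the 10 genes (FBL, SNU13 and PIH1D1), where 12.1% of all genes tested were, and higher in all 4 for 1 (ZNHIT3), where 9.76% were. For SNU13 the level in library 2 was 0.900 to 0.943 of that in library 1, and for PIH1D1 it was 0.920 to 0.975. NOP56 and NOP58 turned with the fraction: library 2 held 1.21 and 1.16 times the NOP56 level of library 1 in polysome U and CT, and 0.699 and 0.792 times in input U and CT. NOP58 was at 1.37 and 2.10 times in polysome U and CT, and at 0.880 and 0.881 times in input U and CT.

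**Figure D2:**
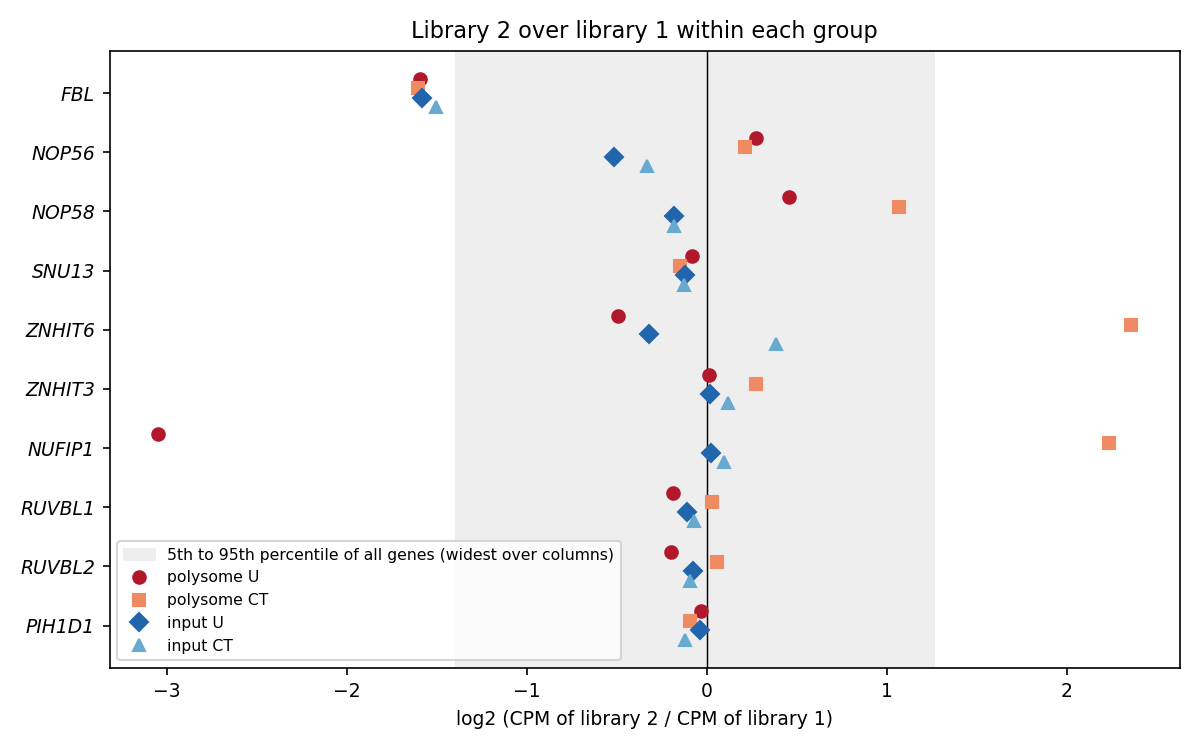
Log2 ratio of library 2 over library 1 in each of the 4 groups, per gene, with the span from the 5th to the 95th percentile of all genes tested shaded (widest over the groups, from CPM + 0.5). FBL lies left of the shading in all 4 groups, near -1.5 to -1.6, and NUFIP1 and ZNHIT6 leave it only in polysome libraries. The points carry no added 0.5, which at the low CPM of NUFIP1 sets them farther from 0, so its place beside the shading is not like for like.

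The genes whose profile over the 8 libraries lay nearest to that of FBL were not among its partners. Likeness was taken as the root mean square difference of log2(CPM + 0.5) profiles, each centred on its own mean, among the 8158 other genes that averaged 10 CPM or more. The nearest was KCNN1 at 0.229, followed by SOCS3 at 0.316, BIN1, a membrane-curving adaptor protein, at 0.401, TUBA1B, an alpha-tubulin, at 0.405, and ZBTB32 at 0.467. TUBA1B is one of several near-identical alpha-tubulin genes and its count is uncertain. Among the partners, PIH1D1 at 0.749, RUVBL2 at 0.750, RUVBL1 at 0.767 and SNU13 at 0.781 lay close together, and NOP58 was farthest at 1.504. Pearson's r with FBL over the 8 libraries, a description only, put these 4 the other way round, at 0.726 for SNU13, 0.620 for RUVBL1, 0.592 for RUVBL2 and 0.580 for PIH1D1. ZNHIT3 and NUFIP1 averaged below 10 CPM and were left out. ZNHIT6, at 1.266 with an r of 0.0331, was kept on its mean, although only polysome CT library 2 was above 10 CPM. The 8 libraries come from 4 lysates, each in both fractions, so these distances mix the fraction with the library number.

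The partners differed widely in abundance. Set per kb of merged exons, the median input level was 91.1 CPM per kb for SNU13, 77.8 for FBL, 63.9 for PIH1D1, 56.4 for NOP56, 53.4 for NOP58, 41.0 for RUVBL2 and 12.8 for RUVBL1. ZNHIT3, NUFIP1 and ZNHIT6 were far lower, at 1.46, 1.35 and 0.951 CPM per kb. Merged exons include retained introns, so the order was also taken by the length of 1 principal coding transcript per gene, a choice made after seeing the data. By that length PIH1D1 and SNU13 led at 178 CPM per kb each, and FBL followed at 146, NOP56 at 127, NOP58 at 86.1, RUVBL2 at 74.9, RUVBL1 at 49.8, ZNHIT3 at 10.3, ZNHIT6 at 2.11 and NUFIP1 at 1.35. In this order neighbours from PIH1D1 down to RUVBL2 had overlapping ranges over the 4 input libraries (FBL alone ran from 72.6 to 218 CPM per kb), while RUVBL1, ZNHIT3, ZNHIT6 and NUFIP1 each lay clear of the gene above.

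Polysome against input RNA asks which of these transcripts were richer in the ribosome-loaded part of a lysate. All 10 genes lay on 1 side in all 4 lysates. FBL, SNU13, ZNHIT6, RUVBL1, RUVBL2 and PIH1D1 were higher in polysome RNA each time (6 of 10, where 23.8% of all genes tested were), and NOP56, NOP58, ZNHIT3 and NUFIP1 were lower each time (4 of 10, where 32.1% were). In the U libraries 4 of the 10 were called higher and 3 lower at an adjusted p under 0.05, against 14.2% and 14.3% of all genes. In the CT libraries 5 were called higher and 2 lower, against 16.5% and 12.7% of all genes. The core thus divided: FBL and SNU13 stood on the polysome side, and the scaffold pair NOP56 and NOP58 on the input side. Each change is measured against the rest of the library: over all genes tested the median log2 fold change was -0.18 in U and -0.13 in CT.

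**Figure D3:**
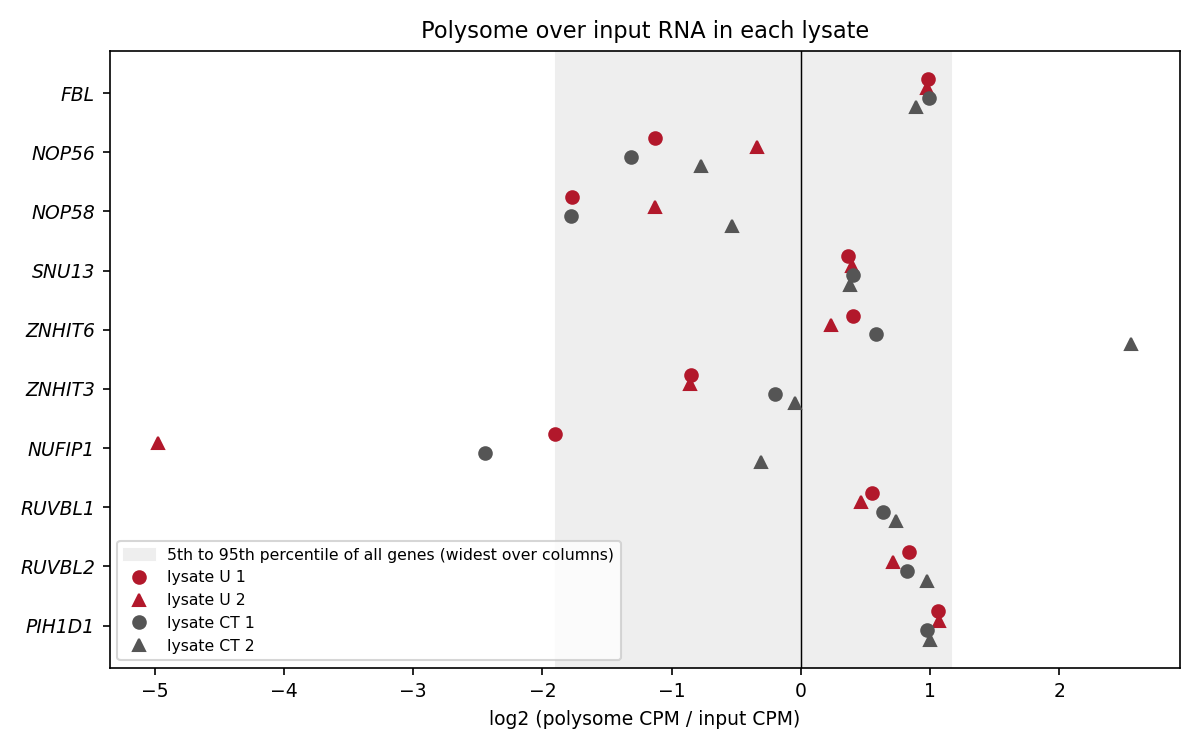
Log2 ratio of polysome to input CPM in each of the 4 lysates (red, U; grey, CT; circle, lysate 1; triangle, lysate 2), with the span from the 5th to the 95th percentile of all genes tested shaded (widest over the lysates, from CPM + 0.5). FBL sits between 0.89 and 0.99 in all 4 lysates, NOP56 and NOP58 lie below 0 in each, and the points outside the shading are ZNHIT6 in lysate CT 2 and NUFIP1 in lysates U 2, CT 1 and, just past its edge, U 1. The points carry no added 0.5, which at the low CPM of NUFIP1 sets them farther from 0, so its place beside the shading is not like for like.

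FBL had nearly the same ratio of polysome to input RNA in the lysates with high and with low FBL. The polysome level was 1.973 and 1.963 times the input level in lysates U 1 and U 2, and 1.99 and 1.85 times in lysates CT 1 and CT 2. On the log2 scale polysome RNA was higher by 0.98 in U (SE 0.70, adjusted p = 0.332, edgeR) and by 0.97 in CT (SE 0.70, adjusted p = 0.348, edgeR), neither of them called, with the 2 libraries of each group far apart. Without library 1 of the polysome group these values were -0.03 in U and -0.05 in CT. With the lysate as a block, which compares the 2 fractions of the same lysate, the change was 0.98 in U (SE 0.08, adjusted p = 1.57e-08, edgeR) and 0.94 in CT (SE 0.08, adjusted p = 1.72e-08, edgeR). In that fit 34.9% of all genes were called in U and 35% in CT, and 8 of the 10 genes in each. Each label has 2 lysates, and the fit leaves 2 residual degrees of freedom. The small p-values therefore lean on a spread shared across genes.

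SNU13 (ENSG00000100138, chromosome 22, 41673930 to 41690504, minus strand) also binds the U4 small nuclear RNA of the spliceosome. Its level was 371 and 350 CPM in polysome U, against 289 and 266 CPM in input U. It was 355 and 319 CPM in polysome CT, against 268 and 245 CPM in input CT. Polysome and input libraries did not overlap in either label. On the log2 scale the rise was 0.38 in U (SE 0.10, adjusted p = 0.0202, edgeR) and 0.39 in CT (SE 0.10, adjusted p = 0.0160, edgeR). The ratio of polysome to input was 1.28 to 1.32 over the 4 lysates. The change is small, and its call was lost in U without polysome U 1 or input U 2 (adjusted p = 0.0619 and 0.135, edgeR) and in CT without polysome CT 1 or any single input library (adjusted p of 0.0602 to 0.266, edgeR).

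NOP56 (ENSG00000101361, chromosome 20, 2652145 to 2658393, plus strand) was at 147 and 177 CPM in polysome U, against 321 and 224 CPM in input U. It was at 146 and 169 CPM in polysome CT, against 364 and 288 CPM in input CT. Every polysome library lay below every input library, and in both labels library 1 had the wider gap. Polysome RNA fell by 0.75 on the log2 scale in U (SE 0.18, adjusted p = 0.0121, edgeR) and by 1.05 in CT (SE 0.18, adjusted p = 0.00185, edgeR). Without input U 1 the value in U was -0.44 (adjusted p = 0.141, edgeR). Some NOP56 transcripts in the annotation keep introns, and SNORD56, SNORD57, SNORD86 and SNORD110 lie wholly inside those annotated exons. Reads of retained introns can therefore be counted to the gene along with spliced mRNA, save those that also match a snoRNA and may be left out as ambiguous. The part of retained introns in the input level was not tested. The 3 NOP56 pseudogenes in the tables had 0 reads.

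NOP58 (ENSG00000055044, chromosome 2, 202265716 to 202303666, plus strand) was at 49.4 and 67.8 CPM in polysome U, against 169 and 148 CPM in input U. It was at 60.6 and 127 CPM in polysome CT, against 208 and 183 CPM in input CT. Again no polysome library reached an input library, and polysome CT library 2 was the highest of the 4 polysome values. The fall came to -1.44 on the log2 scale in U (SE 0.29, adjusted p = 0.00441, edgeR) and to -1.06 in CT (SE 0.28, adjusted p = 0.0180, edgeR), or -0.63 in CT without polysome CT 1 (adjusted p = 0.0550, edgeR). The polysome level was 0.293 and 0.457 of the input level in lysates U 1 and U 2, and 0.291 and 0.693 in lysates CT 1 and CT 2.

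Of the R2TP subunits, PIH1D1, RUVBL1 and RUVBL2 stood on the polysome side in both labels, while RPAP3, no member of the 10 and named after its values were seen, was called lower in both. PIH1D1 (ENSG00000104872, chromosome 19, 49446298 to 49453497, minus strand), the adaptor of R2TP, varied little from lysate to lysate. It was at 450 and 439 CPM in polysome U, against 215 and 209 CPM in input U, a log2 rise of 1.07 (SE 0.09, adjusted p = 6.65e-05, edgeR). It was at 449 and 420 CPM in polysome CT, against 229 and 210 CPM in input CT, a log2 rise of 0.98 (SE 0.09, adjusted p = 6.1e-05, edgeR). The polysome level was thus 1.963 to 2.096 times the input level in all 4 lysates.

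RUVBL2 (ENSG00000183207, chromosome 19, 48993448 to 49015995, plus strand) was at 275 and 239 CPM in polysome U, against 155 and 146 CPM in input U. It was at 277 and 288 CPM in polysome CT, against 156 and 146 CPM in input CT. Its log2 fold change was 0.77 in U (SE 0.11, adjusted p = 0.000546, edgeR) and 0.90 in CT (SE 0.11, adjusted p = 0.000183, edgeR). Its partner in the hexameric ring, RUVBL1 (ENSG00000175792, chromosome 3, 128064778 to 128153914, minus strand), was also higher in polysome RNA. RUVBL1 was at 141 and 124 CPM in polysome U, against 96.3 and 89.3 CPM in input U. It was at 134 and 136 CPM in polysome CT, against 86.1 and 81.9 CPM in input CT. For RUVBL1 the log2 fold change was 0.51 in U (SE 0.11, adjusted p = 0.00763, edgeR), or 0.47 without input U 2 (adjusted p = 0.0618, edgeR), and 0.68 in CT (SE 0.11, adjusted p = 0.00141, edgeR). The strand setting of the counting is not given, and RUVBL1 shares 5.02% of its exon bases with SEC61A1 and 5.39% with EEFSEC on the other strand, PIH1D1 4.56% with ALDH16A1.

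The 3 low assembly factors were less steady. ZNHIT3 (ENSG00000273611, chromosome 17, 36486629 to 36499310, plus strand) was at 5.80 and 5.84 CPM in polysome U, against 10.5 and 10.6 CPM in input U. It was at 7.26 and 8.76 CPM in polysome CT, against 8.34 and 9.03 CPM in input CT, where the groups overlapped. Its log2 fold change was -0.86 in U (SE 0.29, adjusted p = 0.0482, edgeR), a call lost with the lysate block (-0.86, SE 0.34, adjusted p = 0.0602, edgeR) and without any single library other than a polysome CT one, and -0.12 in CT (SE 0.28, adjusted p = 0.820, edgeR). ZNHIT3 shares 15.6% of its exon bases with MYO19 on the other strand.

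NUFIP1 (ENSG00000083635, chromosome 13, 44939249 to 44989483, minus strand) rested on few polysome reads: 43 and 3 in polysome U, against 151 and 212 in input U, and 31 and 153 in polysome CT, against 196 and 192 in input CT. In CPM these were 1.20 and 0.145 in polysome U, against 4.48 and 4.54 in input U, and 0.897 and 4.22 in polysome CT, against 4.89 and 5.22 in input CT. The input libraries were even, and the polysome libraries were spread widely. In lysate U 2 the polysome level was 0.0319 of the input level, with an exact 95% interval of 0.00652 to 0.0944 that covers counting error only. In U the log2 fold change was -2.68 (SE 0.92, adjusted p = 0.0531, edgeR), and -3.13 with the lysate block (SE 0.86, adjusted p = 0.00652, edgeR). In CT it was -0.98 (SE 0.85, adjusted p = 0.445, edgeR).

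ZNHIT6 (ENSG00000117174, chromosome 1, 85649423 to 85708433, minus strand) was at 8.16 and 5.79 CPM in polysome U, against 6.17 and 4.92 CPM in input U. It was at 8.39 and 43.0 CPM in polysome CT, against 5.62 and 7.31 CPM in input CT. A single library, polysome CT 2, stood apart. The log2 fold change was 0.34 in U (SE 0.59, adjusted p = 0.728, edgeR) and 1.99 in CT (SE 0.60, adjusted p = 0.0304, edgeR), and without polysome CT 2 the CT value was 0.37 (adjusted p = 0.568, edgeR). The call was also lost without either input CT library, at adjusted p of 0.136 and 0.0705 (edgeR). Among polysome libraries NOP58, NUFIP1, ZNHIT3 and, by a small margin, RUVBL2 (288 CPM, against 277 CPM in polysome CT 1) were also highest there. That library had reads from more genes than the other polysome libraries. Its part in these results was not tested beyond leaving it out.

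The comparison of U with CT holds no measured difference in FBL, so it compares the partners by label alone. No gene of the 10 was called in polysome RNA, where 0.879% of all genes tested were, and none in input RNA, where 0% were and 744 genes had an unadjusted p under 0.05 (edgeR). DESeq2 called ZNHIT6 in polysome RNA (log2 fold change -1.83, adjusted p = 0.0289) and no other of the 10 in either fraction. Of all 16503 genes tested, DESeq2 called 1203 in polysome RNA and 76 in input RNA. In polysome RNA the U and CT groups did not overlap for 3 genes, all lower in U (ZNHIT6, ZNHIT3 and RUVBL2), where 23.6% of all genes were lower without overlap and 15.4% higher. In input RNA 2 were higher in U (ZNHIT3 and RUVBL1), where 21.1% of genes were, and 2 lower (NOP58 and NUFIP1), where 20.3% were.

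**Figure D4:**
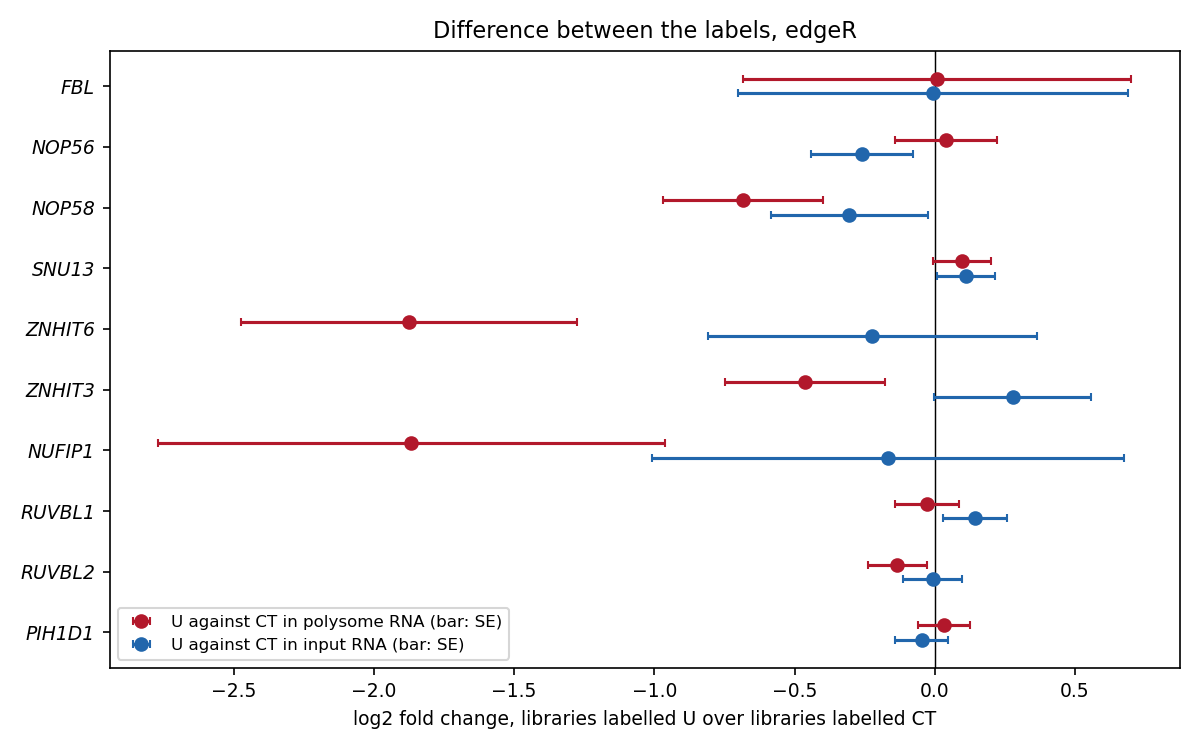
Log2 fold change of the libraries labelled U over those labelled CT, per gene, in polysome RNA (red) and input RNA (blue), with the SE of the edgeR fit as bars. FBL lies at 0.01 and -0.01 with wide bars, and the points farthest from 0 are ZNHIT6 and NUFIP1 in polysome RNA, none of them called.

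The largest differences between the labels were in polysome RNA and hung on 1 library. On the log2 scale U minus CT was -1.88 for ZNHIT6 (SE 0.60, adjusted p = 0.150, edgeR), -1.87 for NUFIP1 (SE 0.90, adjusted p = 0.302, edgeR) and -0.68 for NOP58 (SE 0.28, adjusted p = 0.246, edgeR). Without polysome CT 2 these were -0.26, -0.35 and -0.05. NUFIP1 was called only without polysome U 1 (-4.11, adjusted p = 0.0445, edgeR), where the U group is the single library with 3 reads, and ZNHIT6 without polysome CT 1 (-2.62, adjusted p = 0.0139, edgeR), where the CT group is the library that stands apart. In both cases the lone library is assumed to vary like the other groups. In input RNA the scaffold pair lay lowest, NOP58 at -0.30 (SE 0.28) and NOP56 at -0.26 (SE 0.18), each with an adjusted p of 1 (edgeR). The remaining values ran from -0.46 for ZNHIT3 to 0.10 for SNU13 in polysome RNA, and from -0.22 for ZNHIT6 to 0.28 for ZNHIT3 in input RNA.

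The difference between U and CT in the polysome against input change was called for none of the 10, and for 0% of all genes, where 1046 had an unadjusted p under 0.05 (edgeR). The widest values were -1.70 for NUFIP1 (SE 1.23), -1.65 for ZNHIT6 (SE 0.83) and -0.74 for ZNHIT3 (SE 0.40), at adjusted p of 0.819, 0.778 and 0.779 (edgeR). For FBL the difference was 0.01 (SE 0.98), and 0.03 (SE 0.12, adjusted p = 1, edgeR) with the lysate as a block.

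Genes that work beside these proteins were taken as lists, chosen by function and not by how they moved, in the same comparison of polysome with input RNA. The shares of all genes to read these counts against are the 14.2% called higher and 14.3% called lower in U, and the 16.5% and 12.7% in CT. Of 17 R2TP and prefoldin-like partners, 8 were called higher and 3 lower in U, and 6 higher and 3 lower in CT, and the list's median was 0.53 in U and 0.25 in CT on the log2 scale, beside -0.18 and -0.13 for all genes tested. In U the largest were TTI2, of the TTT complex that works with R2TP on large kinases (1.05), the chaperone HSP90AB1 (1.03), the prefoldin subunit PFDN2 (0.85) and TAF9, of the general transcription machinery (-0.82). In CT they were PFDN6, a prefoldin subunit (1.38), POLR2E, a shared RNA polymerase subunit (1.02), TAF9 (-0.95) and TELO2, another TTT subunit (0.94). The 3 genes called lower were the same in both labels, namely TAF9, RPAP3 (-0.77 in U and -0.78 in CT) and TTI1, a further TTT subunit (-0.59 and -0.58), the last of which was also named after its values were seen.

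Of 15 proteins of the U3 snoRNP and small-subunit processome, which use the box C/D core to fold and cut the pre-rRNA, 4 were called higher and 2 lower in each label, with medians of 0.26 in U and 0.22 in CT, so the count called lower was near the share of all genes. RRP9, the U3-specific protein, stood at 1.17 in U and 1.25 in CT, and TBL3 at 0.98 and 1.01. MPHOSPH10 went the other way, at -0.79 in U and -0.85 in CT, IMP4 stood at 0.80 in U, and WDR75 at -0.63 in CT. Of the 4 proteins that join SNU13 on the U4 RNA, 2 were higher and 1 lower in each label. They were PRPF31, which shares its RNA-binding fold with NOP56 and NOP58 (1.11 in U and 1.24 in CT), the cyclophilin PPIH (1.17 and 0.96) and PRPF3 (-0.56 and -0.83).

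Of 12 factors of snoRNA maturation, transport and Cajal bodies, 1 was called higher and 3 lower in U, and 1 higher and 2 lower in CT, with medians of -0.32 and -0.15, beside -0.18 and -0.13 for all genes tested. For a list of 12 genes these counts lay near the shares of all genes given above. The export receptor XPO1 stood at -0.95 in U and -0.84 in CT, GEMIN4 of the SMN complex at 0.73 and 0.96, and TCOF1, the nucleolar treacle protein, at -0.39 in U. SMN1 (-0.50 and -0.96) has a near-identical copy, SMN2, so its count is uncertain. FBLL1, the FBL paralog, was at 0.947 and 1.35 CPM in polysome U and 0.405 and 3.11 CPM in polysome CT, against 2.25 and 1.54 CPM in input U and 2.27 and 1.39 CPM in input CT. It was called in neither label (log2 fold change -0.73 in U and -0.06 in CT).

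The noncoding hosts of box C/D and other snoRNAs lay lowest of the lists. Of 9 hosts, 8 were called lower and 0 higher in each label, with medians of -1.51 in U and -1.59 in CT. SNHG5 was at 39.1 and 29.9 CPM in polysome U, against 221 and 215 CPM in input U, a log2 difference of -2.66 (SE 0.14, adjusted p = 8.3e-06, edgeR), and it stood at -2.47 in CT. GAS5 stood at -1.67 in both, SNHG1 at -1.63 in U and -2.06 in CT, SNHG16 at -1.52 in U, and SNHG6 at -1.63 in CT. The exception was SNHG15, at 0.00 in U and 0.06 in CT. NOP56 and NOP58, which are snoRNA hosts and code for proteins, were at -0.75 and -1.44 in U and -1.05 and -1.06 in CT. The noncoding hosts ranged from -2.66 to 0.00 in U and from -2.47 to 0.06 in CT. That range holds these values, but also the medians of all genes tested (-0.18 and -0.13), so lying within it shows no likeness. Without a block, no gene of any list was called between U and CT in polysome or input RNA (edgeR). With the title number as a block, 4 were called in polysome RNA, TELO2 (-0.54), PFDN2 (0.33), WDR43 (-0.96) and GEMIN4 (-0.52). In that fit 6.38% of all genes tested were called, and the count over the lists was near that share.

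**Figure D5:**
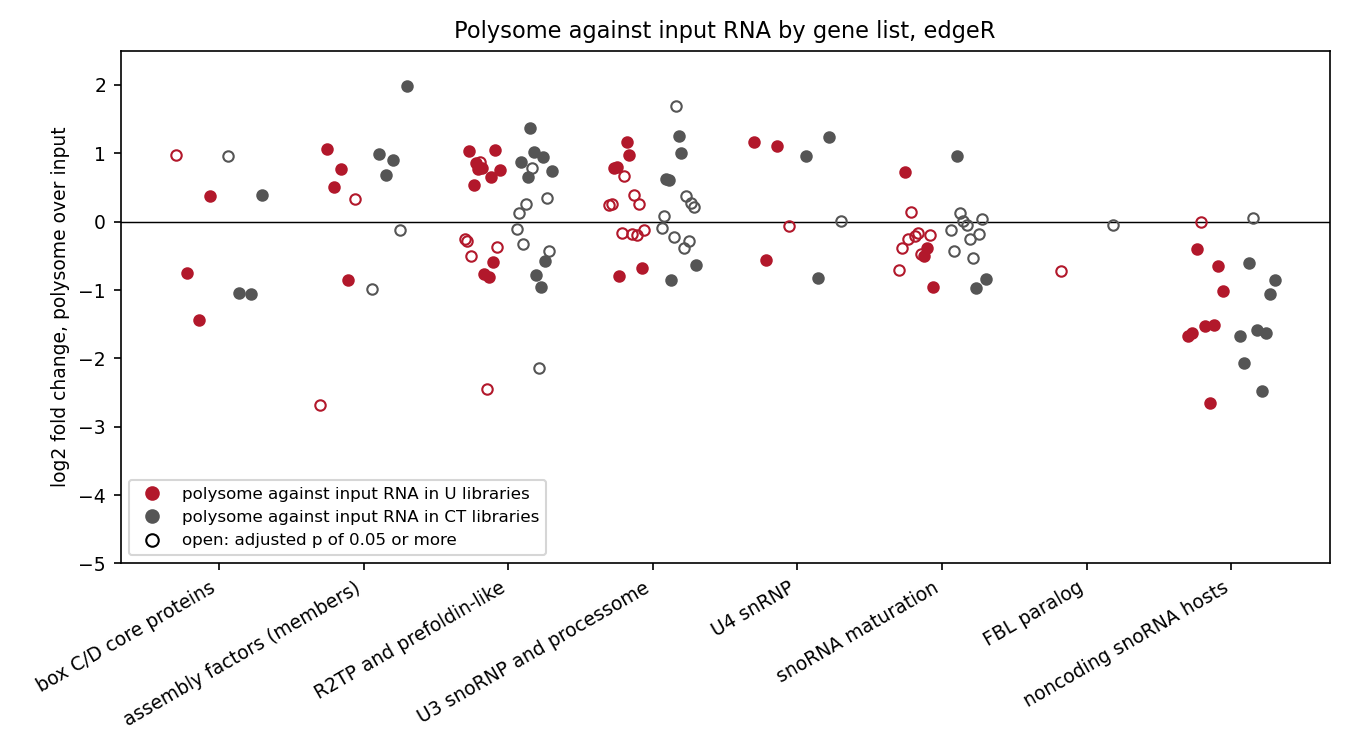
Log2 fold change of polysome over input RNA for every tested gene of the core, the assembly factors and the lists (red, U; grey, CT; filled, adjusted p under 0.05). The noncoding snoRNA hosts fall below 0 except SNHG15, while the R2TP and prefoldin-like, U3 and U4 lists hold called genes on both sides.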

How the data were processed

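Polysome and input RNA of OCI-AML3 cells was sequenced in 8 libraries. The deposited tables are unnormalized counts of reads per gene. The submitters' processing notes name Trimmomatic 0.38, Bowtie2, HTSeq 0.11.2 and the GRCh38 build, and leave out the Bowtie2 version, annotation release and strand setting. Bowtie2 does not split reads over introns, which can lower counts of genes with many junctions. Lines naming no gene (13.2% to 15.0% of reads) were left out. Of 58395 genes, 57754 had a symbol in the name table. Positions and exon lengths came from GENCODE v29.

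Counts were fitted in edgeR 4.0.16 (R 4.3.3) with TMM scaling, filterByExpr and the quasi-likelihood test, with 1 term per group over all 8 libraries (4 residual degrees of freedom). Genes at a Benjamini-Hochberg adjusted p under 0.05 were called. Libraries of a group differed by a chi-square of 22.1 to 48.7 per degree of freedom over genes, more than counting noise gives, which does not show separate cultures, and each was counted as a sample as the labels list it. Polysome and input libraries of a lysate are paired by the protocol and the titles. A fit with the lysate as a block was therefore also made (2 residual degrees of freedom). In simulated counts of 16503 genes for U against CT in polysome RNA, 100 genes were changed 2-fold and 100 were changed 4-fold. Of these, 62% and 100% were recovered. The changed genes all averaged 10 CPM or more, so this says nothing of ZNHIT3 and NUFIP1. Nor does it speak for ZNHIT6, which was above 10 CPM only in polysome CT library 2. No library-number difference was simulated, so the recovery does not speak for FBL either. Alternatives were other scalings and filters, DESeq2 1.42.0, limma-voom 3.58.1, fewer libraries and replicate blocks. The 10 genes are always named, and at most 4 called genes per list and comparison, those with the largest log2 fold change in size. SNHG15, FBLL1, RPAP3, TTI1 and the list genes called only with a block were named after their values were seen, as were the genes counted beside FBL by library number. Genes and lists were chosen with earlier results of these data known.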

Additional observations from a re-analysis of the deposited data

How the results depend on the processing

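Of 900 values of the 10 genes under alternatives, 786 kept their direction and their side of the threshold, 28 became called, 35 lost a call and 51 changed sign. Of 279 that rested on a call, 244 kept it. The lost calls were those of ZNHIT3 in U (16 settings), SNU13 in CT (8) and U (2), ZNHIT6 in CT (6), and NOP56 in U, NOP58 in CT and RUVBL1 in U (1 each), all in polysome against input RNA.

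RUVBL1 in polysome RNA (-0.03) was at 0.0156 with relative log expression, 0.0540 with upper quartile scaling, 0.0418 with no filter, 0.0647 with a 10 CPM filter, 0.0160 with DESeq2 and 0.0431 with the compared libraries alone. With upper quartile scaling FBL and RUVBL2 in input RNA were at 0.00365 and 0.00548. The SNU13 difference between the labels in the polysome against input change was at 0.0516, 0.0546, 0.0772, 0.0759 and 0.0518 with relative log expression, upper quartile, no filter, 10 CPM and DESeq2.

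With 1 library left out, FBL ran from -0.997 to 1.02 (U against CT, polysome), -1.03 to 0.91 (input), -0.99 to 1.09 (difference), -0.0310 to 1.99 (polysome against input, U) and -0.0536 to 1.83 (CT). NOP56 ran from -0.10 to 0.17, RUVBL1 from -0.12 to 0.0648 and PIH1D1 from -0.0115 to 0.10 (U against CT, polysome), RUVBL2 from -0.0720 to 0.0197 (input), and ZNHIT3 from -0.27 to 0.00899 (polysome against input, CT). The difference ran from -0.82 to 0.26 for NOP58, -0.0855 to 0.14 for SNU13 and -0.23 to 0.00851 for RUVBL2.

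Between U and CT in polysome RNA, 145 genes were called (41 higher, 104 lower), 1117 with no filter, 326 at 10 CPM (195 and 131), 1203 with DESeq2, 297 with limma-voom, 0 with the compared libraries alone, 1053 with the title number as a replicate block, and 0 to 1455 with 1 library left out. Upper quartile scaling gave 53 and 48, relative log expression 47 and 76. Of the 10 genes, 2 were called with no filter (NOP58 and ZNHIT6), 1 with DESeq2, and 0 to 1 with 1 library left out. In input RNA 0 genes became 83 with no filter, 76 with DESeq2, 3 with limma-voom, 66 with the number block and 0 to 1 with 1 library left out. For the difference, 0 became 55 with no filter, 10 with DESeq2, 9 with the lysate as a block and 0 to 55 with 1 library left out. Polysome against input calls (4697 in U, 4810 in CT) ran from 2677 to 5197 and from 3115 to 5970 with 1 library left out, and the 10 genes' calls from 4 to 8 and from 5 to 7.

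The labels give the library number no meaning across U and CT, and the main fit did not take it as a pairing. The FBL ratios of U to CT by number and the fits with the number as a block do set same-numbered libraries together. The deviations of same-numbered libraries correlated at 0.0190 to 0.0897, and those of the fractions of a lysate, which are paired, at 0.0659 and 0.0732, so this measure does not tell pairs from other libraries. With that number as a replicate block FBL was at 0.01 (SE 0.07) in polysome and -0.02 (SE 0.07) in input RNA, and none of the 10 was called. Of the 10 genes, the lysate block changed the calls given for FBL, NUFIP1 and ZNHIT3. On the lists it added SPAG1 (-3.51) and COIL (-0.76) in U, and URI1 (-0.43), PWP2 (1.31) and PHAX (-0.54) in CT. An alternative chosen after seeing the data left out a whole lysate from the blocked fit of the difference: 924 genes were called without lysate U 1, 71 without U 2, 31 without CT 1 and 1 without CT 2. Of the 10 genes, 2 were then called without U 1 (NOP56 at 0.71 and NUFIP1 at -3.60) and 0 without the others. Sign changes there were 0.0211 for NOP58 and 0.00546 for SNU13 without U 1, -0.0269 for NOP56 and 0.0252 for SNU13 without U 2, 0.0902 for SNU13 without CT 1, and 0.415 for NOP58, 0.0623 for SNU13 and 0.0341 for RUVBL2 without CT 2. The cause was not tested in any of these cases. A filter at 10 CPM moved the median of all genes by -0.15 in polysome against input in CT, and other scalings and filters by under 0.1. Depth limits NUFIP1 most, with 3 polysome reads in U 2.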
